A study of Mus musculus with 8 samples.

Results

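The genes described here are 52 enzymes of amino acid breakdown and of the urea cycle in liver, taken from pathway knowledge as a list of names. No threshold on the values was used, but the list was chosen with earlier results of these data known. Its counts beside the shares of all genes therefore describe the list and do not test it. A transcript cluster, the unit that an Affymetrix MoGene 2.0 ST array reports, was taken wherever the platform annotation named 1 of the 52, alone or with another gene. This gave 52 clusters for 49 of the 52 genes, out of 41345 clusters on the array. Of the 49, 48 had a cluster of their own and were tested among 22180 genes. Gstz1 was measured only by a cluster it shares with Pomt2, and Gls2, Sds and Sdsl were not analysed here.

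The arrays compared AML12 cells that carry a stable Zfp125 expression construct with AML12 cells that carry the empty vector, with 4 arrays for each. AML12 cells are an established mouse hepatocyte line. G418 selection, the control medium and the AML12 background were common to both groups. Zfp125, a zinc finger protein gene, had no cluster of its own here, so its level was not checked on the arrays, and separate cultures, a clone or a pool of cells are not named in the labels. The p-values therefore reflect only how these 4 and 4 samples spread, which may be technical. Fewer cells that make an mRNA and less of it per cell cannot be told apart in RNA from whole cultures.

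Hepatocytes degrade most amino acids. A transaminase usually passes the amino group to glutamate, glutamate dehydrogenase releases it as ammonia, and the urea cycle turns the ammonia into urea. The carbon skeletons enter gluconeogenesis, ketone body formation or the citric acid cycle. Many of these genes are high in liver and are controlled by glucocorticoids, glucagon and liver transcription factors.

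In Zfp125 cells 5 of the 48 tested members fell and 0 rose. They were Tat with a 2.74-fold lower level, Kyat3 with 2.37-fold, Gpt with 1.60-fold, Cth with 1.47-fold and Oat with 1.35-fold. Among all 22180 genes, 0.636% fell and 0.446% rose at the same threshold, a Benjamini-Hochberg adjusted p under 0.05 in limma. All values below are on the log2 scale, changes are Zfp125 minus empty vector cells with the standard error of limma, a mean is given with its SD, and each group has n = 4 arrays.

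The other members lay mostly on the same side. Of the 48, 40 had a negative change and 8 a positive one, and the median change was -0.16, against -0.00268 over all genes. At an unadjusted p under 0.05, 18 of the 48 were lower and 0 higher, where 5.50% of all genes were lower and 5.43% higher. All 4 Zfp125 arrays lay below all 4 empty vector arrays for 15 of the 48 members, against 3.58% of all genes, and above them for 1, Gldc, against 3.71% of all genes. The mean over the 48 members was between 6.02 and 6.14 on the empty vector arrays and between 5.81 and 5.86 on the Zfp125 arrays, so the groups did not overlap. The cumulative plot of changes shows the members displaced toward lower values along most of the range.

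**Figure D1:**
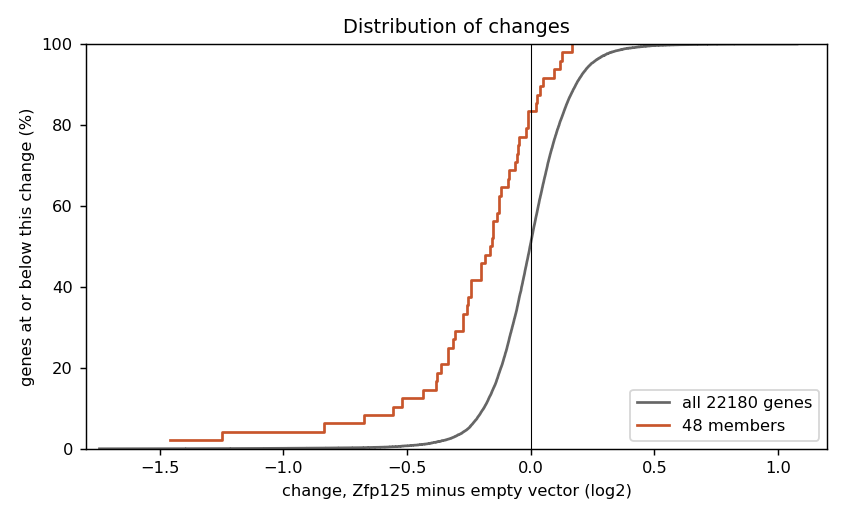
Cumulative share of genes (vertical axis, percent) at or below a given change (horizontal axis, log2, Zfp125 minus empty vector) for all 22180 genes in gray and the 48 members in orange. Over most of the range the members' curve lies left of the curve of all genes, with medians of -0.16 and -0.00268.

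The promoters of members that fell are shown as a description, and shared control of these genes was not tested. RefSeq windows of 250 bases before to 50 after a start site (GRCm38.p6) were given for 42 of the 52 members and for 3 of the 5 that fell: Tat at chr8:109990186-109990485 on the plus strand, Kyat3 at chr3:142700798-142701097 on the plus strand and Oat at chr7:132576349-132576648 on the minus strand. Capitals mark matches to CCAAT (or ATTGG on the other strand) in all 3 windows and, in Oat, also to GGGCGG, whose 2 matches lie end to end.
Tat: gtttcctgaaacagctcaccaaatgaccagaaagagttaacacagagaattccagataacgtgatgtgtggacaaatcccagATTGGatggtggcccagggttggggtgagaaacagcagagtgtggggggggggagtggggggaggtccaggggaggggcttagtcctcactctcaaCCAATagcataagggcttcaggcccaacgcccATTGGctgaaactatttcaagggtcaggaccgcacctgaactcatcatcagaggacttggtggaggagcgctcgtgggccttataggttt
Kyat3: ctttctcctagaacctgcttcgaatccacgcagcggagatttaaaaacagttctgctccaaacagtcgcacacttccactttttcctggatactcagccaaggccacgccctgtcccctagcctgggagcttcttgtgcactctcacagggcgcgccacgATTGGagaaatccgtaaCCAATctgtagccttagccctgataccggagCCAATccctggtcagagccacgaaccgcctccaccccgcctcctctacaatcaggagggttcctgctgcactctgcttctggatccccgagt
Oat: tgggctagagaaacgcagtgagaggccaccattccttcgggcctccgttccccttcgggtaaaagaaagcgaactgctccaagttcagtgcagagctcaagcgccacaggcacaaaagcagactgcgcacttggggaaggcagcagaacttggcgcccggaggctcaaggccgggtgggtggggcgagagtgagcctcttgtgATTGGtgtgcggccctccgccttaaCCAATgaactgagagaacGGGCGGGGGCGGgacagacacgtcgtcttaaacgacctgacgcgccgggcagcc

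CCAAT, searched on both strands, occurred 3 times in the Tat window, 3 times in that of Kyat3 and 2 times in that of Oat. A share of 37.4% of all 32851 windows of the same length held it, and 11.7% held it at least 2 times. Among the 45 windows of members, some genes having more than 1, 25 held it and 15 held it at least 2 times. GGGCGG occurred in 35.7% of all windows and in 21 of the 45. The letters TATAAA (13.6% of all windows), TGTTCT, part of the glucocorticoid receptor element (19.0%), TGACGTCA, the cAMP response element (1.79%), TTGCGCAA, a C/EBP palindrome (0.183%) and CAAAGTCCA, an HNF4 site (0.475%), are not in these 3 windows. A match describes the letters and does not show that a factor binds.

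Tyrosine breakdown starts with Tat, the tyrosine aminotransferase. Tat had values of 6.88, 6.46, 7.12 and 7.20 on the empty vector arrays and of 5.50, 5.55, 5.11 and 5.68 on the Zfp125 arrays. Every Zfp125 array was below every empty vector array, and the means were 6.92 ± 0.33 and 5.46 ± 0.25. The change was -1.46 ± 0.16 (adjusted p = 5.76e-04), and its adjusted p was at most 0.00429 over the 8 omissions of an array. The call ended if variances were not moderated (adjusted p = 0.0881).

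None of the enzymes after Tat passed the test at the main settings. Hpd, which forms homogentisate, had a change of -0.09 ± 0.10, with a 95% interval of -0.32 to 0.13. For Hgd, which opens the homogentisate ring, the change was -0.27 ± 0.11 (adjusted p = 0.345), from a mean of 4.08 to 3.81, both below 4.35, the median of all clusters. Fah, the fumarylacetoacetate hydrolase that ends the pathway, had values of 8.46, 8.31, 8.27 and 8.54 in empty vector cells and of 8.14, 8.19, 7.83 and 7.88 in Zfp125 cells, which do not overlap. Its change was -0.38 ± 0.11 (adjusted p = 0.151), which passed with a trended, robust prior (adjusted p = 0.0288). The cluster shared by Gstz1, the isomerase before Fah, and Pomt2, an unrelated gene, had a change of -0.18 ± 0.10 in a fit over all clusters (adjusted p = 0.62). Of the enzymes that recycle the tetrahydrobiopterin cofactor of aromatic amino acid hydroxylation, Pcbd1 had a change of -0.18 ± 0.09 and Qdpr of -0.02 ± 0.11.

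Tryptophan is broken down along the kynurenine pathway, and Kyat3 is a kynurenine aminotransferase that forms kynurenic acid and also accepts glutamine. Kyat3 had values of 7.25, 6.94, 7.01 and 7.07 in empty vector cells and of 5.77, 6.03, 5.68 and 5.80 in Zfp125 cells. The 2 sets of arrays were separated by more than the range within either. The change was -1.25 ± 0.10, from a mean of 7.07 ± 0.13 to 5.82 ± 0.15 (adjusted p = 5.07e-05), which ranked 6 among the 22180 genes by p. Its call held in every alternative that was run, with adjusted p-values up to 4.89e-04 when 1 array was left out.

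The other 6 tryptophan members did not pass, with changes from -0.16 to 0.13. Tdo2, the dioxygenase that opens the tryptophan ring, had a change of -0.15 ± 0.12 from a mean of 3.37, and Kmo and Kynu were likewise below the median of all clusters, with means of 3.58 and 2.78 in empty vector cells. Afmid, the formamidase of the second step, had a change of 0.12 ± 0.11 and Haao, the dioxygenase that opens the ring of 3-hydroxyanthranilate, of 0.05 ± 0.10. Kyat1, the paralogue of Kyat3, had a change of -0.09 ± 0.11, with a 95% interval of -0.32 to 0.14. The difference between Kyat3 and Kyat1 within an array went from 1.95 ± 0.23 in empty vector cells to 0.79 ± 0.23 in Zfp125 cells. This change had an exact two-sided permutation p of 0.0286, the smallest that 4 arrays against 4 allow. Its adjusted p was 0.107 over the 5 paralogue pairs compared in this way, which were chosen after their values were seen. That smallest p in a single pair cannot reach an adjusted p under 0.05 over 5 pairs, so the adjusted test cannot decide the question. The genes Gtf2b and Pkn2, near Kyat3 in the RefSeq gene order, had changes of -0.13 ± 0.10 and 0.10 ± 0.11.

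**Figure D2:**
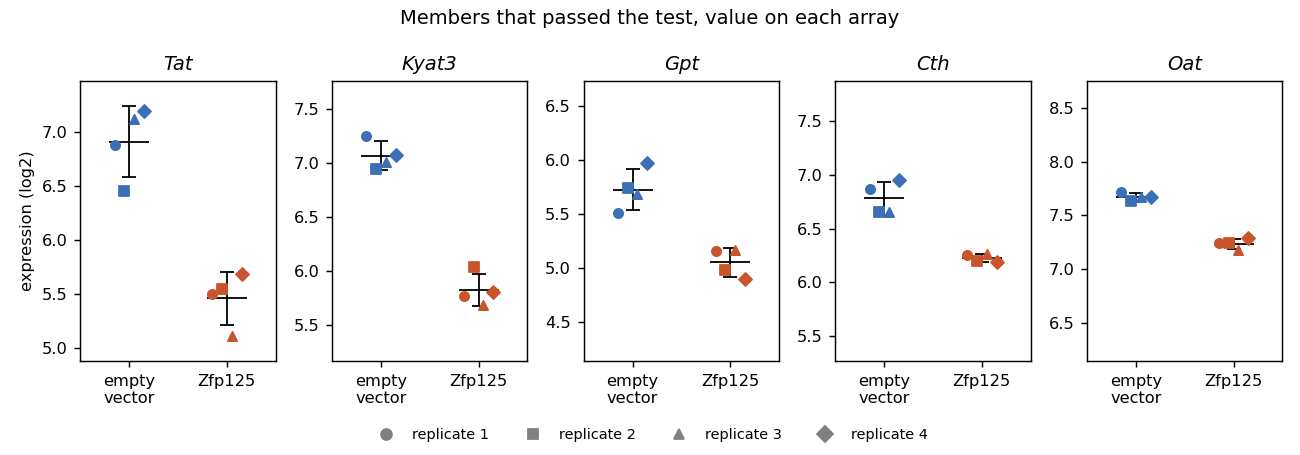
Log2 expression on each array (vertical axis, equal span in all panels) of the 5 members that passed the test, with empty vector arrays in blue and Zfp125 arrays in orange, symbols for the replicate number, and a black line and bar for mean and SD. In each panel all 4 orange points lie below all 4 blue points, from 2.74-fold for Tat to 1.35-fold for Oat.

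Alanine, aspartate and glutamate carry the amino groups. Gpt, the cytosolic alanine aminotransferase, had values of 5.51, 5.74, 5.68 and 5.97 in empty vector cells and of 5.16, 4.98, 5.16 and 4.90 in Zfp125 cells. The groups did not overlap, and Gpt fell by 0.67 ± 0.11 (adjusted p = 0.0103), with adjusted p-values up to 0.0407 when 1 array was left out. The call ended without variance moderation (adjusted p = 0.119) and when all clusters were tested together (adjusted p = 0.0786). Gpt2, its mitochondrial paralogue, had means of 8.25 ± 0.16 and 8.12 ± 0.15 and a change of -0.13 ± 0.11 (adjusted p = 0.733). The difference between Gpt and Gpt2 within an array changed by -0.55 (exact two-sided permutation p = 0.0571, adjusted p = 0.107 over 5 pairs), so a difference in response between these paralogues did not pass.

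Of the aspartate aminotransferases, Got1 in the cytosol had values of 8.27, 8.05, 7.84 and 8.06 in empty vector cells and of 7.69, 7.61, 7.73 and 7.69 in Zfp125 cells, and a change of -0.38 ± 0.10 (adjusted p = 0.114). Got2 in mitochondria had means of 9.47 and 9.27, a change of -0.20 ± 0.08 (adjusted p = 0.389), and its dimmer cluster one of -0.10. Glud1, the glutamate dehydrogenase that frees ammonia, had a change of -0.31 ± 0.10 from a mean of 10.07 ± 0.14 to 9.76 ± 0.08 (adjusted p = 0.201). Got1, Got2 and Glud1 each had all 4 Zfp125 arrays below all 4 empty vector arrays and none of them passed. With a trended, robust prior Got1 and Glud1 passed.

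Among the enzymes of methionine and sulfur metabolism, Cth was the member that fell. Cth, the cystathionine gamma-lyase that releases cysteine, had values of 6.86, 6.65, 6.66 and 6.95 in empty vector cells and of 6.25, 6.20, 6.26 and 6.19 in Zfp125 cells. The Zfp125 arrays were close together and all lay below the empty vector arrays. Cth fell by 0.56 ± 0.10, from 6.78 ± 0.15 to 6.22 ± 0.04 (adjusted p = 0.0126), with adjusted p-values up to 0.0451 when 1 array was left out. The call ended without variance moderation (adjusted p = 0.0844) and with all clusters tested (adjusted p = 0.0772). Cbs, the cystathionine beta-synthase of the step before, went from a mean of 7.07 to 6.75, a change of -0.31 ± 0.12 without overlap of the groups (adjusted p = 0.306).

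The other methionine members had negative changes that did not pass. Mat1a, the liver methionine adenosyltransferase, had values of 6.74, 6.52, 6.68 and 7.08 in empty vector cells and of 6.28, 6.17, 6.27 and 6.96 in Zfp125 cells, where the fourth array stood above the others, and a change of -0.33 ± 0.17 (adjusted p = 0.494). Gnmt, which uses surplus methyl groups, had a change of -0.26 ± 0.16 and Bhmt, the betaine methyltransferase, of -0.12 ± 0.12. Ahcy, which hydrolyses S-adenosylhomocysteine, had a change of -0.01 ± 0.13 in its brighter cluster, the one used here, and of -0.38 ± 0.19 in the other. Neither passed, and no genome position was given for either cluster. The number of the dimmer cluster lies between those of Foxa2 on chromosome 2, which also holds Ahcy, and Foxo1 on chromosome 3. That of the brighter lies between Prodh on chromosome 16 and Crebrf on chromosome 17. The change of -0.01 may therefore not be that of the Ahcy gene, which was not settled. Dmgdh and Sardh, which oxidise dimethylglycine and sarcosine, had changes of -0.01 ± 0.12 and -0.06 ± 0.09, and the dimmer cluster of Sardh one of 0.01.

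Oat, the mitochondrial ornithine aminotransferase that links ornithine to proline, had little spread within a group. Its values were 7.72, 7.63, 7.67 and 7.67 in empty vector cells and 7.24, 7.24, 7.18 and 7.29 in Zfp125 cells. The means were 7.67 ± 0.04 and 7.24 ± 0.04, and Oat fell by 0.44 ± 0.08 (adjusted p = 0.0216). The call was lost on leaving out any of 6 single arrays, empty vector replicates 1, 3 and 4 and Zfp125 replicates 1, 2 and 3, with adjusted p-values of 0.0544 to 0.0814, and with all clusters tested (adjusted p = 0.0772). Prodh, the proline dehydrogenase, had values of 5.46, 5.82, 5.41 and 5.35 in empty vector cells and of 4.80, 4.87, 5.12 and 5.16 in Zfp125 cells. The groups did not overlap, but the change of -0.52 ± 0.12 did not pass (adjusted p = 0.0671). It passed among genes above the 25th percentile of all clusters (adjusted p = 0.0499) or above their median (adjusted p = 0.0243). Aldh4a1, the next enzyme of proline breakdown, had a change of 0.10 ± 0.09, and Aass, which starts lysine breakdown, of -0.06 ± 0.11 at a low mean of 2.90.

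None of the 5 urea cycle enzymes passed the test, although all 5 had negative changes of -0.84 to -0.24. Cps1, the carbamoyl phosphate synthetase that admits ammonia to the cycle, had values of 8.63, 8.49, 8.99 and 9.01 in empty vector cells and of 7.71, 7.69, 7.74 and 8.63 in Zfp125 cells. The first 3 Zfp125 arrays lay well below all empty vector arrays and the fourth lay within them. The change was -0.84 ± 0.20 (adjusted p = 0.0656). Without Zfp125 replicate 4 it was -1.07 and passed (adjusted p = 0.00226), and in the other 7 omissions the adjusted p was 0.0713 to 0.196. It also passed with a trended, robust prior (adjusted p = 0.0368) and among genes above the median (adjusted p = 0.0238) or 25th percentile level (adjusted p = 0.0491).

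The remaining steps of the cycle had smaller changes. Otc, which forms citrulline, had means of 4.58 and 4.31 and a change of -0.27 ± 0.10 (adjusted p = 0.314), and its values on Zfp125 replicate 4, 4.51, and on empty vector replicate 2, 4.44, crossed. Ass1, the argininosuccinate synthetase, had means of 5.57 and 5.23 and a change of -0.34 ± 0.11 (adjusted p = 0.257). Asl, the argininosuccinate lyase, had means of 6.62 and 6.38 and a change of -0.24 ± 0.09 with no overlap of the groups (adjusted p = 0.318). Arg1, the liver arginase that releases urea, had a change of -0.24 ± 0.13 (adjusted p = 0.521).

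**Figure D3:**
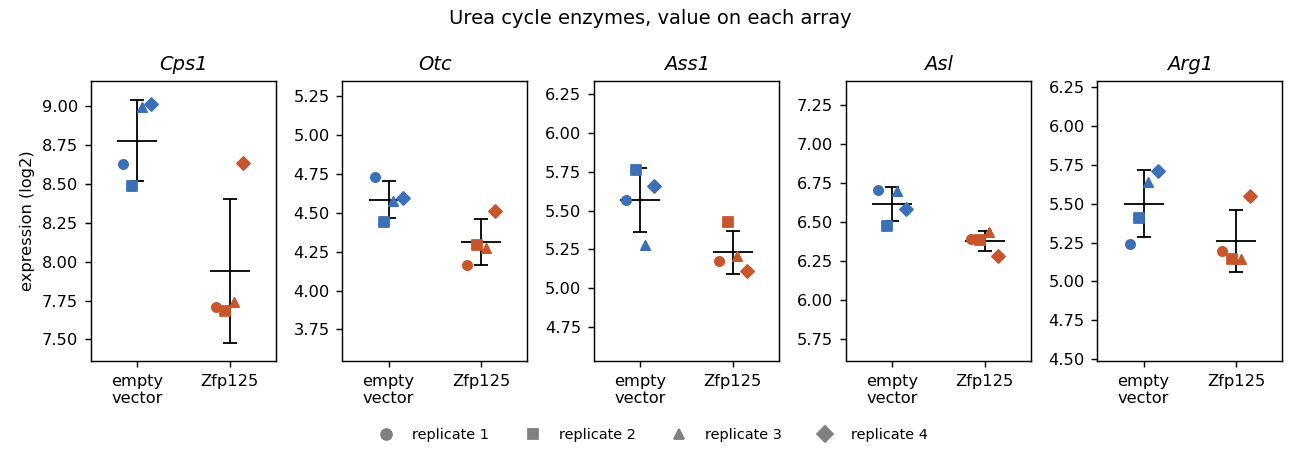
Log2 expression on each array (vertical axis, equal span in all panels) of the 5 urea cycle enzymes, with empty vector arrays in blue, Zfp125 arrays in orange, symbols for the replicate number, and a black line and bar for mean and SD. On Zfp125 replicate 4 (diamond) Cps1 was 8.63, Arg1 5.55 and Otc 4.51, each above the other 3 Zfp125 arrays, while Ass1 and Asl were lowest on that array.

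Histidine, glycine and branched-chain members did not pass. The 4 histidine enzymes had changes of -0.25 to -0.14. Amdhd1, the imidazolonepropionase, had means of 4.58 and 4.33 and a change of -0.25 ± 0.10 (adjusted p = 0.377). Uroc1, the urocanate hydratase, had -0.20 ± 0.16, Hal, the histidine ammonia-lyase, -0.16 ± 0.11, and Ftcd, which passes the formimino group to folate, -0.14 ± 0.09. Gldc, the glycine decarboxylase of the glycine cleavage system, was the member with the most positive change, 0.17 ± 0.08 (adjusted p = 0.479), with values of 9.93, 9.82, 9.88 and 9.88 in empty vector cells and of 10.02, 10.07, 10.07 and 10.03 in Zfp125 cells, which do not overlap. Amt, another protein of that system, had a change of -0.13 ± 0.09, and Agxt, the glyoxylate aminotransferase, of -0.05 ± 0.11.

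Of the 6 branched-chain members, 3 had positive and 3 negative changes, with a median of -0.01. Bckdhb, the beta subunit of the first component of the branched-chain ketoacid dehydrogenase, had values of 5.99, 5.72, 6.03 and 6.19 in empty vector cells and of 5.59, 5.71, 5.65 and 5.53 in Zfp125 cells. Its change of -0.36 ± 0.11 did not pass (adjusted p = 0.164). The alpha subunit, Bckdha, had a change of -0.15 ± 0.10. Bcat2, the mitochondrial branched-chain aminotransferase, had 0.03 ± 0.11, Ivd, the dehydrogenase of the leucine branch, -0.05 ± 0.09, and the methylcrotonyl-CoA carboxylase subunits Mccc1 and Mccc2 had 0.02 ± 0.11 and 0.04 ± 0.11. For Mccc2 the 95% interval was -0.19 to 0.27.

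**Figure D4:**
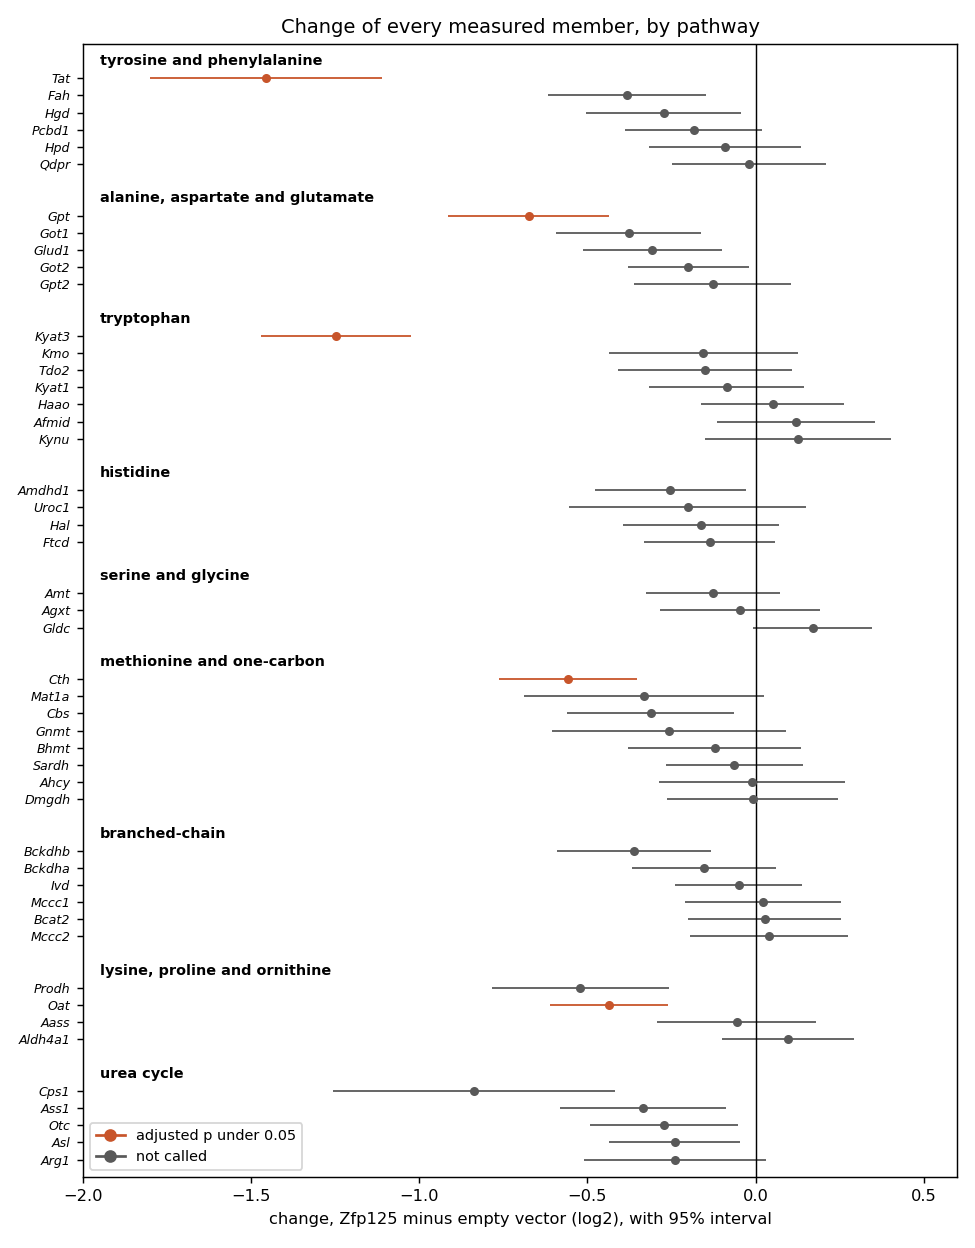
Change (horizontal axis, log2, Zfp125 minus empty vector, with 95% interval from limma) of each of the 48 tested members, grouped by pathway, with the 5 members at an adjusted p under 0.05 in orange and the others in gray. Points left of 0 are lower in Zfp125 cells, which holds for 40 of the 48, and all members of the alanine, methionine, histidine, tyrosine and urea cycle groups lie there.

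The 5 members that fell share a cofactor that the choice of members did not use. Tat, Kyat3, Gpt, Cth and Oat are all enzymes that bind pyridoxal phosphate, the active form of vitamin B6. Of the 48 tested members, 14 are enzymes of this kind and 34 are not, and 0 of those 34 passed at the main settings. With a trended, robust prior 4 members without the cofactor passed as well, Cps1, Fah, Glud1 and Prodh, and Cps1 and Prodh also passed under both filters on level. The 9 other pyridoxal phosphate enzymes had changes of -0.38 to 0.17 with a median of -0.09, and the 34 members without the cofactor had a median of -0.15. This grouping was made after the values were seen and was not tested.

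Other genes of the same pathways showed few calls. Of 18 further branched-chain enzymes, 10 of tryptophan and lysine, 8 of the urea cycle and ammonia handling, 22 of sulfur, serine and methyl group metabolism, 8 of proline, arginine and histidine, and 6 of serine and asparagine synthesis, 0 passed in each list. At an unadjusted p under 0.05 the lower genes in these lists numbered 3, 4, 3, 5, 0 and 0, and the higher ones 0, 0, 0, 0, 1 and 0. The lower ones made up 16.7%, 40%, 37.5%, 22.7%, 0% and 0% of the lists, where 5.50% of all genes were lower and 5.43% higher. More lower genes than that share were thus found in the first 4 of these lists as well. Aadat, the mitochondrial aminoadipate and kynurenine aminotransferase, had a change of -0.52 ± 0.12 (adjusted p = 0.0703), and Acmsd, which diverts tryptophan carbon away from NAD synthesis, of -0.52 ± 0.14 (adjusted p = 0.108). Nags, whose product activates Cps1, had a change of -0.30 ± 0.09 and Slc25a13, the mitochondrial aspartate and glutamate carrier, of -0.38 ± 0.12. Hsd17b10, of the isoleucine branch, had a change of -0.34 ± 0.09 (adjusted p = 0.0952) and Aldh18a1, of proline synthesis, one of 0.24 ± 0.09 (adjusted p = 0.35).

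Of 24 amino acid transporters, 1 fell and 1 rose. Slc7a2, a carrier of arginine, lysine and ornithine, had values of 5.67, 5.37, 5.63 and 5.84 in empty vector cells and of 4.76, 4.37, 4.59 and 4.84 in Zfp125 cells, with no overlap. It fell by 0.98 ± 0.12 (adjusted p = 0.00139), a 1.98-fold lower level, with adjusted p-values up to 0.00999 over single omissions and of 0.0932 without moderated variances. Slc6a6, the taurine transporter, rose by 0.42 ± 0.09 (adjusted p = 0.0429), but 7 of 8 single omissions took the call away, at adjusted p-values up to 0.142, as did median centring of the arrays (adjusted p = 0.0583), unmoderated variances and the test of all clusters. Slc38a3, a glutamine and histidine carrier of liver, had a change of -0.45 ± 0.11 (adjusted p = 0.0858).

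Among 24 regulators of amino acid catabolism, 1 rose, the pioneer factor Foxa1 by 0.86 ± 0.11 (adjusted p = 0.00179), and 0 fell. Nr3c1, the glucocorticoid receptor, had a change of -0.08 ± 0.10, with a 95% interval of -0.29 to 0.14, and Klf15, a driver of amino acid catabolism in fasting, of -0.09 ± 0.10. Cebpa and Hnf4a, factors that maintain hepatocyte genes, did not pass: Cebpa had -0.39 ± 0.12 (adjusted p = 0.176) and Hnf4a -0.38 ± 0.09 (adjusted p = 0.0562). Hnf4a passed with quantile normalization (adjusted p = 0.0485), under both filters on level (adjusted p = 0.0191 and 0.0403) and with a trended, robust prior (adjusted p = 0.00327). Foxa3, a related liver factor, had -0.35 ± 0.10 (adjusted p = 0.173) and passed with that prior. Of 16 glucocorticoid-responsive genes, Tat among them, 5 fell and 0 rose. The others that fell were Dusp1 with a change of -1.03 ± 0.11, Igfbp1 with -1.18 ± 0.12, Sult1a1 with -1.03 ± 0.11 and Mt2 with -0.44 ± 0.09. Mt2 kept its call in 0 of 8 single omissions (adjusted p up to 0.102). Of the 16, 12 had a negative change and 4 a positive one. Lcn2 with -0.56 ± 0.13 (adjusted p = 0.0677) and Mt1 with -0.31 ± 0.08 (adjusted p = 0.124) passed only in alternatives, both with a trended, robust prior. Fkbp5, Tsc22d3 and Per1, also among the 16, had changes of -0.18 ± 0.09, 0.02 ± 0.10 and 0.13 ± 0.10 and did not pass. For Mt1 and Fkbp5 all Zfp125 arrays lay below all empty vector arrays.

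Some hepatocyte markers fell and others changed little. Of 9 measured, 4 fell and 0 rose, where 0.636% of all genes fell and 0.446% rose. The 4 had changes of -1.33 for Ahsg, -1.11 for Fga, -0.61 for Apoa1 and -0.48 for Alb. Ahsg was not among the hepatocyte markers first planned, and it is counted in the 9, in the 4 and in their mean level. Apoa1 kept its call only without Zfp125 replicate 4 among the 8 single omissions (adjusted p up to 0.163 in the others) and lost it with quantile normalization (adjusted p = 0.0507) or where the clusters of a gene were averaged (adjusted p = 0.0517). Alb lost its call without empty vector replicate 3 or 4 or Zfp125 replicate 1 or 2 (adjusted p up to 0.0716). With all clusters tested Ahsg, Apoa1 and Alb lost their calls, and without moderated variances all 4 markers did, as did Foxa1, Dusp1, Igfbp1, Sult1a1 and Mt2. The mean level of the 9 was 8.96 to 9.17 on the empty vector arrays and 8.53 to 8.82 on the Zfp125 arrays. Alb, the albumin gene that defines hepatocytes, had a mean of 12.96 in empty vector cells. The markers that did not pass were Hnf4a, given above, Ttr, Apob, Serpina1a and Asgr1. Ttr and Apob had changes of 0.08 ± 0.10 and -0.07 ± 0.09, and Serpina1a and Asgr1 of -0.11 ± 0.11 and 0.12 ± 0.11. Of 4 measured biliary markers 0 passed, with Sox9 and Krt19 at means of 9.75 and 8.15 in empty vector cells. Sox9 had a change of 0.28 ± 0.09 (adjusted p = 0.204), with all Zfp125 arrays above all empty vector arrays, and passed with a trended, robust prior. Krt19 had a change of -0.14 ± 0.11. Macrophage (6 measured), endothelial (5) and stellate or fibroblast markers (6) also had 0 calls, and their mean levels, 4.11 to 4.30, 4.18 to 4.33 and 4.36 to 4.43 on empty vector arrays, overlapped with those on Zfp125 arrays, 4.15 to 4.26, 4.05 to 4.33 and 4.31 to 4.50. The part of the hepatocyte markers' shift in the members' changes was not tested.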

How the data were processed

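RNA of 8 AML12 samples was hybridised to MoGene 2.0 ST arrays, 4 in each group, as the sample titles give. The deposited values are log2 expression per transcript cluster, a scale read from the values. The submitters' processing notes name 2 Affymetrix programs, Expression Console and Transcriptome Analysis Console. Program versions, normalization and background correction are not given in the sources used. Array medians were 4.32 to 4.37, and correlations between arrays 0.977 to 0.984. The number of arrays limits the precision.

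Clusters were named through the platform annotation and updated by Entrez identifier to RefSeq (GRCm38.p6). Of several clusters with 1 symbol the brightest was used. The fit was lmFit and eBayes of limma 3.58.1 in R 4.3.3 over 22180 genes, two-sided, called at a Benjamini-Hochberg adjusted p under 0.05, and it was tested on simulated data. The members, gene lists and motifs were chosen with earlier results of these data known. Every member is accounted for, called members with all values. Of other lists the called genes and up to 4 with the smallest p are named. Exceptions are Nr3c1, Klf15, Fkbp5, Tsc22d3, Per1, Ttr, Apob, Serpina1a, Asgr1, Gtf2b and Pkn2, chosen after values were seen. Alternatives changed the scaling, filter, variance prior, array weights, clusters, replicate block and arrays included. Plots were drawn with matplotlib 3.10.9.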

Additional observations from a re-analysis of the deposited data

Results flagged for a closer look

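Single arrays stood apart from the other 3 of their group in 8 of the 96 groups of values checked for the members, where chance gives about 1 in 20. In Zfp125 cells the array of replicate 4 was high for 3 of them: Cps1 at 8.63 against 7.69 to 7.74 on the other arrays, Mat1a at 6.96 against 6.17 to 6.28 and Arg1 at 5.55 against 5.14 to 5.20. On the same array the hepatocyte markers had a mean of 8.82, against 8.53 to 8.65 on the other Zfp125 arrays, and the 48 members had a mean of 5.86, against 5.81 to 5.83. Of the 48, 17 had their highest Zfp125 value on that array, Otc, Gnmt, Bhmt and Uroc1 among them, and 16 their lowest, Ass1, Asl, Cbs and Gpt among them. In empty vector cells replicate 4 was also highest for Cps1 (9.01), Mat1a (7.08) and Arg1 (5.71), without being flagged. There 23 of the 48 had their highest empty vector value and 9 their lowest. Its means, 9.17 for the hepatocyte markers and 6.14 for the members, were the highest of that group. The part of the markers' level in these values was not tested.

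The remaining flags were isolated. In Zfp125 cells Dmgdh was 3.60 on replicate 3 against 3.16 to 3.18 elsewhere, and Agxt was 4.00 on replicate 1 against 4.20 to 4.23. In empty vector cells Hpd was 4.75 on replicate 3 against 5.12 to 5.15, Kmo was 4.03 on replicate 2 against 3.40 to 3.46, and Amt was 5.96 on replicate 1 against 5.69 to 5.70. Agxt, Dmgdh and Kmo were below the median of all clusters, 4.35.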

How the results depend on the processing

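The 5 members that fell were also the 5 called with quantile normalization again, median centring, array weights or means of clusters, and Cps1 and Prodh joined them among genes above the 25th percentile level, which made 7. There were 8 among genes above the median level, 10 with a trended, robust prior, 2 without variance moderation and 2 when all clusters were tested, and 4 to 6 when 1 array was left out, with 0 members higher in each of these fits. Over all genes the 240 calls became 405 above the median level, 498 with the trended prior, 26 without moderation, 61 with all clusters tested and 109 to 187 with 1 array left out, fewest without Zfp125 replicate 1. Over all genes, same-numbered arrays did not deviate together (correlations of -0.05 to 0.04). For the members, replicate 4 had the highest mean in both groups, 6.14 in empty vector and 5.86 in Zfp125 cells. Whether same-numbered arrays share more than the number was not settled. With the replicate number as a block 152 genes and 5 members were called, Oat being lost (adjusted p = 0.0748) and Cps1 gained (adjusted p = 0.0134), and Slc6a6 lost its call (adjusted p = 0.11). Where dim genes are left out or all clusters are tested, the number of features in the adjustment differs, and the variance prior is estimated anew. The unadjusted p of limma for Gpt was 3.54e-05 in the main fit and 2.30e-04 with all clusters tested. The cause of these shifts was not tested. In 853 recomputed values of members 0 called changes reversed, and 831 of the values had the sign of the main fit. A change of sign was not counted as a reversal where neither fit called the member. Detection was not assessed, so dim members such as Kynu, Aass and Dmgdh may be measured near background.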
